A study of Oryza sativa with 18 samples.

Results

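The 500 regions described here were the accessible chromatin regions of rice with the strongest lean towards 2 cell states of the young flowering shoot, SM and Panicle_UN4 of panicle, out of 128764 regions in all. They were selected from the accessibility values themselves. Each value was put on a log2(CPM + 1) scale. CPM, a count scaled to a fixed total per cell state, is the authors' name for the deposited values. These had been brought to nearly one distribution over the states, so they are not plain scaled counts. From each value on the log2 scale the mean of all 16 panicle states was subtracted. The 500 regions with the largest mean of this difference over SM and Panicle_UN4 were kept. The panicle values therefore chose the regions and are given below as a description with no test. The states of the other organs had no part in the choice, and the tests below used those states alone.

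In single-nucleus ATAC-seq a transposase cuts DNA that is not packed into nucleosomes, so the number of cuts in a region measures how open it is in a cell type. Open regions in plants hold many of the enhancers and promoters that control nearby genes, and a region open in few cell types is a candidate for control particular to them. A grass panicle is built by meristems, pools of dividing cells that first make branches and then spikelets, each of which carries the floral organs. Procambium is the meristem of the vascular system, and its cells go on to form xylem, which carries water, and phloem, which carries sugars with the help of companion cells.

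Nuclei of rice of the genotype Nipponbare were taken fresh from 9 organs or stages: panicle, leaf, axillary bud, seedling, early seedling, crown root, seminal root, late seed and early seed, with no treatment named beyond fresh tissue. Each organ had 2 libraries of 16000 nuclei, sorted by fluorescence and made with a droplet kit, 18 libraries in all. The authors' table gives 1 pooled value for each region and cell state, 128 states in all, so a value has no replicate, no SD and no n within an organ. Whole organs are the only replicates here, and whether the 2 libraries of an organ came from separate plants is not stated in the labels.

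Depth per state is unknown. As a substitute, distinct values were counted in each column, and their number ran from 51 to 2587 over the 128 states, with a median of 402.5. It was 753 for SM and 427 for Panicle_UN4. The sources used here give no genome build, and coordinates are as in the authors' table, counted from 1. No gene, exon or promoter is named for any region, because no annotation of that build was used here. For the same reason the state names could not be checked against marker genes.

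The label of a meristem set held in part. In panicle the 500 regions were most open in SBM, with a median of 15.4 CPM, above both states that chose them. Panicle_UN4 followed at 14.2, SM at 12.8, PBM at 12.1 and Rudimentary_glume at 11.1 CPM. In work on rice panicles SM, PBM, SBM and FM usually stand for the spikelet, primary branch, secondary branch and floral meristem, although the table does not spell them out. Panicle_UN4 carries no cell type name in the table.

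Other panicle states named for meristems or flowers did not share the high level. FM had a median of 4.94 CPM at the 500 regions, close to its median of 4.56 over all regions. Epidermis_meristem had 2.19 CPM, the lowest of the 16 panicle states. The floral organs were low as well, with medians of 4.09 in Lemma, 3.50 in Palea, 2.96 in Lodicule and 2.79 CPM in Stamen, against all-region medians between 4.45 and 4.67 CPM over the panicle states. Rachis, the axis of the panicle, stood between at 6.44 CPM. The set is therefore called here by its rule and not as open in meristems in general.

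**Figure D1:**
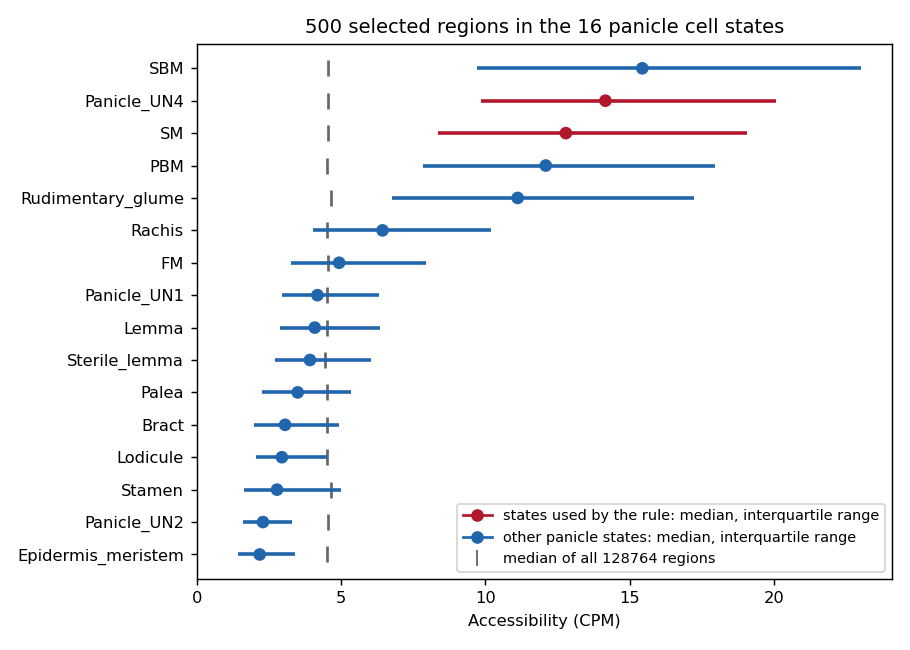
Accessibility (CPM) of the 500 selected regions in each of the 16 panicle cell states, with the median as a point, the interquartile range as a bar and the median of all 128764 regions as a grey tick. SBM, Panicle_UN4, SM, PBM and Rudimentary_glume have medians from 11.1 to 15.4, and the other states lie at 6.44 or below.

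The mean difference that ranked the regions ran from 1.87 at the first to 0.9582 at the last. Just inside the limit were chromosome 3 from 28525250 to 28525750 and chromosome 8 from 10964116 to 10964616, both at 0.9582. Just outside were chromosome 8 from 9774437 to 9774937 at 0.9574 and chromosome 7 from 1726112 to 1726612 at 0.9571, so the limit cuts through a continuum. Of the 500 regions, 158 exceeded the panicle mean by more than 1 in both states, and 290 had at least 10 CPM in both. Panicle_UN4 was the higher of the 2 states in 283 regions and SM in 217. SBM was the highest panicle state in 218 regions, Panicle_UN4 in 139, PBM in 67, SM in 52 and Rudimentary_glume in 22.

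**Figure D2:**
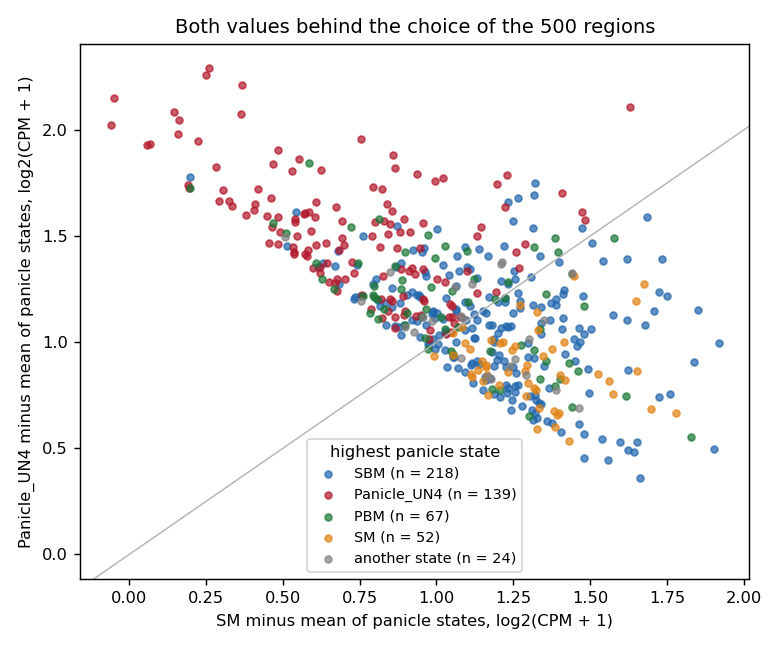
For each of the 500 regions, SM minus the mean of the panicle states (x axis) against Panicle_UN4 minus that mean (y axis), both on the log2(CPM + 1) scale, coloured by the panicle state with the highest value. The straight lower edge is the limit of the choice, and 139 regions peak in Panicle_UN4 against 52 in SM.

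The first region, chromosome 1 from 7223330 to 7223830, had 13.2 CPM in SM and 18.8 CPM in Panicle_UN4. Over the other panicle states it ran from 0.659 CPM in Epidermis_meristem through a median of 2.28 to 17.3 CPM in SBM. Outside panicle its highest state was Companion_cell of axillary bud at 26.4 CPM, and its lowest was Shoot_meristem of early seed at 0.192 CPM. Its median over the states outside panicle was 1.22 CPM, and it reached 1 CPM in 62 of these 112 states. Many of its values were thus low beside its highest.

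That first region was also open in procambium. The Procambial_meristem states had 23.7 CPM in axillary bud, 19.5 in seedling, 5.21 in seminal root, 5.01 in crown root and 3.86 CPM in early seedling. The shoot states were well above the root states, with early seedling the exception at the lowest value. Set against the other states of each organ, the procambial difference was 1.67 ± 0.27 (SE, n = 5 organs; adjusted p = 0.00816, limma). Its Mesophyll difference was -1.05 ± 0.22 (SE, n = 4 organs; adjusted p = 0.0238, limma).

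The second region, chromosome 7 from 23862084 to 23862584, was nearly level over 5 panicle states, with 20.8 CPM in SM, 19.4 in Panicle_UN4, 22.7 in SBM, 21.7 in PBM and 20.2 CPM in Rudimentary_glume. FM had 2.52 and Epidermis_meristem 1.23 CPM. The Procambial_meristem states had 17.4 CPM in crown root, 16.1 in seedling, 16.1 in seminal root, 14.4 in axillary bud and 6.96 CPM in early seedling. Crown root, seminal root, seedling and axillary bud thus had like values here, unlike at the first region. The procambial difference was 1.87 ± 0.26 (SE, n = 5 organs; adjusted p = 0.0039, limma).

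The third, chromosome 2 from 27437491 to 27437991, had 25.8 CPM in SM, 20.2 in Panicle_UN4 and 34.2 CPM in SBM. Its highest state outside panicle was Procambial_meristem of seedling at 31.6 CPM, and its median there was 1.92 CPM. It was lower in Mesophyll by a difference of -1.37 ± 0.15 (SE, n = 4 organs; adjusted p = 0.00327, limma) and in Epidermis by -1.44 ± 0.20 (SE, n = 4 organs; adjusted p = 0.0159, limma). This region was thus called in opposite directions in a vascular meristem and in surface and photosynthetic tissue.

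The next 7 regions by rank lay on chromosome 2 from 27413113 to 27413613, chromosome 11 from 2280133 to 2280633, chromosome 2 from 19901473 to 19901973, chromosome 12 from 24049807 to 24050307, chromosome 1 from 299174 to 299674, chromosome 3 from 27692569 to 27693069 and chromosome 8 from 24390296 to 24390796. Their SM values ran from 11.0 to 22.3 CPM and their Panicle_UN4 values from 14.9 to 23.5 CPM. In each of the 10 highest-ranked regions the highest state outside panicle was a companion cell, a procambial state or a state of the phloem or xylem. The one on chromosome 11 differed from the rest in the root: its Procambial_meristem value was 25.4 CPM in axillary bud but 2.42 in crown root and 1.32 CPM in seminal root. Its procambial difference of 1.08 ± 0.29 missed the threshold (SE, n = 5 organs; adjusted p = 0.053, limma), and those of the other 9 passed it.

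The 2 states of the rule did not always go together. SM exceeded Panicle_UN4 by over 1 on the log2 scale in 12 regions, and Panicle_UN4 exceeded SM by over 1 in 48. The region leaning most to SM, chromosome 11 from 6329051 to 6329551, had 17.6 CPM in SM and 6.03 in Panicle_UN4, with 23.6 in SBM. Next were chromosome 1 from 40932235 to 40932735, with 11.8 against 4.19 CPM, and chromosome 1 from 27251933 to 27252433, with 10.9 against 3.94 CPM. All 3 had SBM and PBM above Panicle_UN4.

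The region leaning most to Panicle_UN4, chromosome 4 from 35082227 to 35082727, had 18.5 CPM there and 3.24 in SM. On chromosome 2 from 1449688 to 1450188 the values were 16.7 and 3.17 CPM, and on chromosome 1 from 406584 to 407084 they were 16.3 and 3.24 CPM. In these 3 regions no other panicle state exceeded 9.76 CPM, so Panicle_UN4 stood alone. Outside panicle the latter 2 were highest in Companion_cell of leaf, at 33.9 and 17.2 CPM.

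In organs that had no part in the choice, all 3 regions leaning most to Panicle_UN4 were higher in Companion_cell than in the other states of their organs, by 1.21 ± 0.27, 1.96 ± 0.39 and 1.73 ± 0.26 in the order above (SE, n = 4 organs; adjusted p = 0.0331, 0.0218 and 0.00793, limma). Their procambial differences, from 0.14 to 0.52, did not pass (adjusted p from 0.117 to 0.726, limma). The Companion_cell calls of this paragraph depend on seedling. With it left out, or with the seedling stages averaged to 1 unit, no region of the table was called in Companion_cell by limma. The Companion_cell column of leaf rests on only 80 distinct values. Of the 3 leaning most to SM, procambial differences of 2.17 ± 0.26 and 1.79 ± 0.20 passed (SE, n = 5 organs; adjusted p = 0.00269 and 0.00249, limma), and the one of 0.82 ± 0.32 on chromosome 1 from 40932235 did not (adjusted p = 0.166). Over all 48 regions leaning to Panicle_UN4 by more than 1, 20 (41.7%) were higher in Companion_cell and 20 (41.7%) in Procambial_meristem. Over the 12 leaning to SM, 2 (16.7%) were higher in Companion_cell and 8 (66.7%) in Procambial_meristem. The shares over the 500 were 21.4% and 62.6%, and the background over all regions was 1.92% and 3.3%. Whether the 2 kinds of region differ in these contrasts was not tested.

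Outside panicle the 500 regions were open in fewer states than usual but strongly so. At least 1 CPM was reached in a median of 102 of the 112 states, against 111 for all regions. In 64 regions, 12.8%, the value reached 1 CPM in all 112 states, against 42.7% of all regions. The median of the mean CPM over the 112 states was 4.80, against 5.10 for all regions, while the median of the highest CPM was 24.4 against 18.6. A panicle state was the highest of all 128 states in 119 regions, 23.8%, against 5.79% of all regions, so 381 regions were still more open in some state of another organ. In 4 regions both SM and Panicle_UN4 exceeded every other state of the table. The rule chose regions for high values in these panicle states. Both counts are therefore a description, and the excess over 5.79% is built into the choice.

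The states where the regions were most open outside panicle were vascular. Axillary bud led: Companion_cell had a median of 15.7 CPM, Developing_phloem 14.3, Procambial_meristem 13.6, Phloem_precursor 13.3, Developing_xylem 12.7 and Xylem_precursor 10.9 CPM. The surface and green tissues of the same bud were low, with 2.99 CPM in Mesophyll, 2.23 in Epidermis and 2.09 CPM in Stomatal_precursor. Vascular precursors and surface tissue of the bud thus stood at opposite ends of the range. Over the 8 organs outside panicle, axillary bud had the highest mean in 368 regions, 73.6%, against 16.6% of all regions. This mean weighs every state of an organ equally, and most of the 14 states of the bud carry vascular names. It is therefore not a comparison of like states between organs.

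In seedlings and roots, too, procambium and developing phloem or stele initials stood above the epidermis of seedlings and the cortex of roots, while other vascular states varied. In seedling the medians were 13.7 CPM in Developing_phloem, 12.5 in Procambial_meristem and 11.3 in Developing_xylem, against 1.65 CPM in Epidermis. In early seedling they were 13.8 CPM in Developing_phloem, 10.7 in Phloem_precursor and 9.72 in Xylem_precursor, against 1.75 CPM in Epidermis. Developing_phloem and Xylem_precursor of early seedling rest on few distinct values, 78 and 105, as does Stele_initials of crown root with 118. In the roots Stele_initials, the stem cells of the central cylinder, had 8.87 CPM in seminal root and 8.15 in crown root, and Procambial_meristem had 8.52 and 8.62 CPM, against no more than 2.09 CPM in Cortex. Developing xylem of the roots was lower: Developing_metaxylem had 4.90 CPM in seminal root and 4.53 in crown root, and Developing_protoxylem, the xylem that forms first, had 2.20 and 2.07 CPM. Companion_cell, the highest state in axillary bud, had 5.22 CPM in seedling and 3.86 in early seedling. Leaf had no state above 4.04 CPM, the median of its Vascular_cell.

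Meristem names outside panicle fell on both sides. Radicle_meristem, the embryonic root meristem, had medians of 7.52 CPM in early seed and 6.20 in late seed. Shoot_meristem of the same seeds had 1.72 and 1.91 CPM, and SAM of early seedling, the customary short form for shoot apical meristem, had 2.67 CPM. Cortex_meristem had 2.14 CPM in seminal root and 2.31 in crown root, and QC of the root tip had 2.91 and 3.57 CPM. Meristems of the stele and radicle were thus above the all-region median near 4.5 CPM, and those of the cortex, the root centre and the shoot tip were below it.

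**Figure D3:**
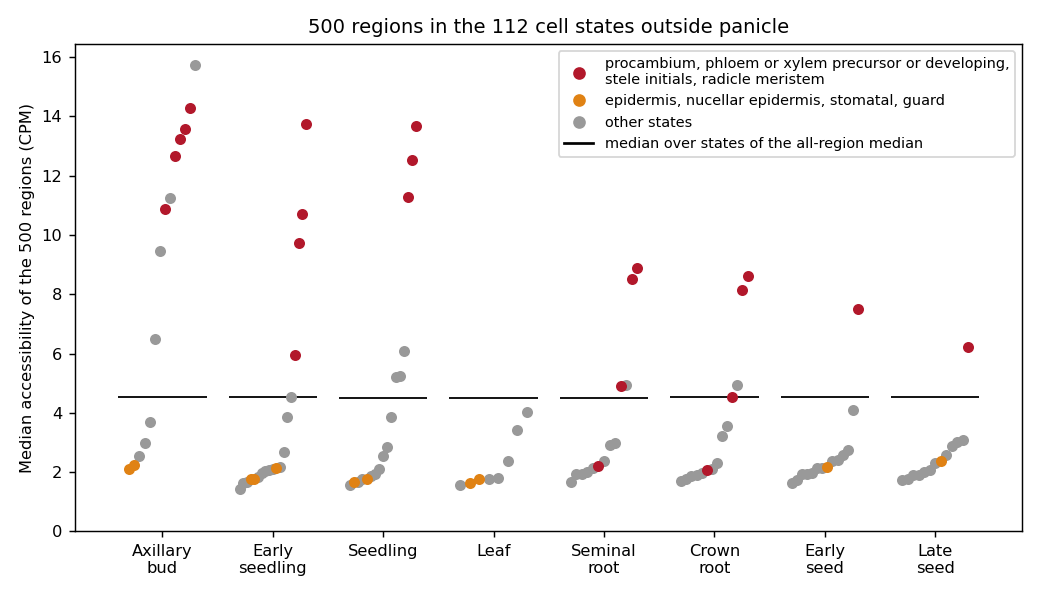
Median accessibility (CPM) of the 500 regions in each of the 112 states outside panicle, one point per state, sorted within its organ. Red points mark 22 states of procambium, of phloem or xylem precursors and developing cells, of stele initials and of radicle meristem, a group drawn up after the values were seen. Of the 22, 19 had a median above that of all regions in the same state, Developing_metaxylem of crown root equalled it at 4.53, and Developing_protoxylem lay below it in both roots.

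Procambium is given first among the labels tested across organs, which is not the order of testing. Its state was set against the mean of the other states of its organ, and the differences of 5 organs entered a two-sided limma test over all regions. Of the 500 regions, 313 were higher in Procambial_meristem and 0 lower at an adjusted p under 0.05, that is 62.6%, where the background over all regions was 3.3% higher and 1.72% lower. All 500 had passed the filter of 1 CPM in at least 1 state of those used. At an unadjusted p under 0.05, 418 were higher and 0 lower, where 10.4% of all regions were higher and 10.9% lower. The median difference was 1.08, against 0.00 over all regions.

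The procambial difference was present in each organ. Its median over the 500 regions was 1.61 in seedling, 1.18 in crown root, 1.11 in seminal root, 0.84 in axillary bud and 0.75 in early seedling, and 346 regions were higher in all 5 organs, 69.2% against 9.57% of all regions. Seedling and the roots stood highest. Without seedling 193 regions were called higher, against 1.21% of all regions. The procambial columns of early seedling and seedling rest on few distinct values, 69 and 174. When columns under 200 were left out the count was 329, against 4.27% of all regions. That fit held only 3 organs, axillary bud and both roots, and the roots share 1 tissue label.

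Other vascular labels gave calls in the same direction. Vascular_cell was higher in 200 regions and lower in 0 (background 4.51% and 1.59%; 309 higher and 4 lower at an unadjusted p under 0.05, against 13.1% and 10.8% of all regions), with a median difference of 0.45. Companion_cell, the nurse cell of the phloem sieve tube, was higher in 107 and lower in 1 (background 1.92% and 0.878%), with a median of 0.53. Both rested on 4 organs, and seedling weighed on both: without it 33 regions were called for Vascular_cell, against 0.217% of all regions. For Companion_cell no region of the table was then called by limma, and 201 of the 500 were higher at an unadjusted p under 0.05, against 5.64% of all regions. Without early seedling 121 were called for Vascular_cell, against 1.59% of all regions. In Companion_cell the median difference was 1.05 in axillary bud and between 0.28 and 0.57 in early seedling, seedling and leaf. The Companion_cell columns of leaf and early seedling rest on few distinct values, 80 and 114. With columns under 200 left out, too few organs remained to fit this label.

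Surface and green tissues gave calls in the opposite direction. Epidermis was lower in 116 regions and higher in 0 (background 1.06% and 2.74%; 377 lower and 0 higher at an unadjusted p under 0.05, against 10.0% and 10.9% of all regions), with a median difference of -0.75. Mesophyll, the photosynthetic tissue, was lower in 193 and higher in 3 (background 3.6% and 4.84%), with a median of -0.60. Bundle_sheath, the layer around leaf veins, was lower in 113 and higher in 10 (background 2% and 4.27%), with a median of -0.46.

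These lower calls came from 4 organs each and leaned on single organs. For Epidermis no region of the table was called by limma without axillary bud, early seedling or seedling, so the count of 0 among the 500 holds for all regions alike. At an unadjusted p under 0.05, 243, 333 and 286 of the 500 were lower in these fits, against 6.56%, 6.84% and 5.26% of all regions. Without leaf, the organ with the Epidermis median nearest to 0, at -0.32, the count was 375, against 8.89% of all regions. For Mesophyll it was 43 without axillary bud, 64 without early seedling and 34 without seedling, against 0.634%, 0.670% and 0.529% of all regions. For Bundle_sheath it was 27 without axillary bud, 23 without early seedling and 281 without leaf, which had a median difference of 0.01, against 0.50%, 0.159% and 4.02% of all regions. Without seedling no region of the table was called for Bundle_sheath by limma, and 200 of the 500 were lower at an unadjusted p under 0.05, against 6.24% of all regions. The medians over regions stayed negative in each of these fits. In every one of the 4 organs Epidermis was lower at 325 regions, 65.0% against 14.8% of all regions, and Mesophyll at 299, 59.8% against 16.2%.

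**Figure D4:**
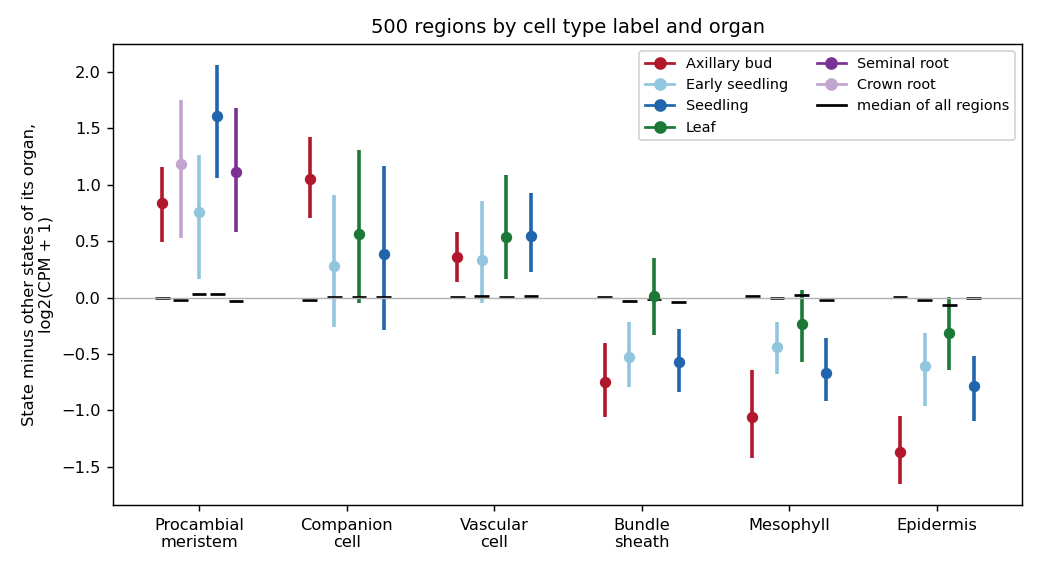
Difference between a labelled state and the mean of the other states of its organ, log2(CPM + 1), for the 500 regions, with the median as a point and the interquartile range as a bar, coloured by organ; short black lines give the median of all regions. Procambial_meristem medians run from 0.75 to 1.61, and Epidermis medians from -1.37 to -0.32.

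Calls in several labels met in the same regions. Higher in Procambial_meristem and lower in Mesophyll were 156 regions, 31.2% against 0.841% of all regions, and higher in Procambial_meristem and lower in Epidermis were 79, 15.8% against 0.324%. Procambial_meristem and Vascular_cell were both higher in 155, 31.0% against 1.38%. At least 1 of Procambial_meristem, Vascular_cell and Companion_cell was higher in 384 regions, 76.8% against 7.76%. No call in any of the 6 labels was made for 78 regions, 15.6% against 78%. The labels share the other states of their organs as a reference, so these contrasts are not independent of each other.

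**Figure D5:**
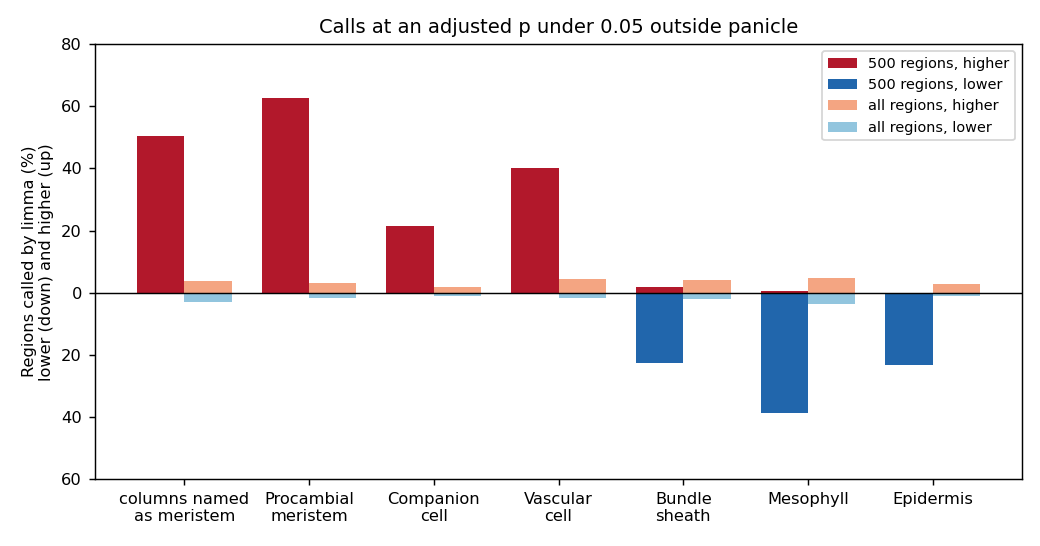
Share of regions (%) called by limma at an adjusted p under 0.05 in each contrast outside panicle, drawn upwards for higher and downwards for lower, for the 500 regions (dark) and all tested regions (light). For Procambial_meristem the bars stand at 62.6% and 3.3%, and for Mesophyll the downward bars stand at 38.6% and 3.6%.

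States with meristem, initial or QC in their name were also averaged in each organ, a contrast planned beside the labels. Over 7 organs 252 of the 500 regions were higher and 0 lower (background 3.68% and 2.86%; 375 higher and 4 lower at an unadjusted p under 0.05, against 12.1% and 11.9% of all regions), with a median difference of 0.72. In axillary bud, early seedling and seedling this group is the procambial state alone. SAM of early seedling, whose name lacks these words, was among the other states. In an unplanned fit that counted SAM as meristem-named, 230 of the 500 were higher and 0 lower by limma. The background was 3.80% and 3.29% of all regions, and the median difference of the 500 was 0.66. Without the procambial states 4 organs remained and no region of the table was called by limma. At an unadjusted p under 0.05, 216 of the 500 were then higher and 19 lower, against 9.32% and 9.73% of all regions, with a median difference of 0.37. The count was 158 without crown root, 161 without seedling and 167 without seminal root, against 1.41%, 1.59% and 1.39% of all regions.

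These counts also depended on how organs were counted. With the seedling stages, the roots and the seed stages each averaged to 1 unit, 72 of the 500 were higher in Procambial_meristem and 51 in Vascular_cell, and 53 were lower in Mesophyll (limma, n = 3 units), against 0.135%, 0.436% and 0.642% of all regions. For Companion_cell, Epidermis and Bundle_sheath (n = 3 units) and for the meristem-named states (n = 4 units) no region of the table was called by limma. At an unadjusted p under 0.05, 403 were higher in Procambial_meristem, 298 in Vascular_cell, 221 in Companion_cell and 367 in the meristem-named states, against 6.77%, 10.5%, 7.27% and 7.07% of all regions. At that p 299 were lower in Mesophyll, 317 in Epidermis and 215 in Bundle_sheath, against 10.2%, 6.36% and 7.62%. With columns under 200 distinct values left out, 115 were higher in the meristem-named states, and 55 were lower in Mesophyll, 50 in Epidermis and 46 in Bundle_sheath, against 0.695%, 1.76%, 0.60% and 1.31% of all regions.

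That test was set for labels in at least 4 organs; labels found in 2 or 3 were not tested and are given as counts of direction. Phloem_precursor was higher than the rest of its organ in both organs at 434 regions, 86.8% against 33.6% of all regions. Developing_phloem was higher in all 3 organs at 411, 82.2% against 24.2%, and Stele_initials in both roots at 403, 80.6% against 36.0%. Radicle_meristem was higher in both seed stages at 398, 79.6% against 29.6%, Xylem_precursor in both organs at 390, 78.0% against 30.8%, and Developing_xylem at 389, 77.8% against 27.2%. The precursors of both conducting tissues thus had shares of like size. Some of these columns are coarse, among them Developing_phloem of early seedling with 78 distinct values and Developing_xylem of axillary bud with 121. In the roots Developing_metaxylem was higher in both at 317, 63.4% against 32.5%, whereas Developing_protoxylem was lower in both at 316, 63.2% against 39.3%.

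Neighbouring tissues were mixed. Pericycle, the outer layer of the root stele, was higher in both roots at 319, 63.8% against 33.7%. Xylem_parenchyma was higher in all 3 organs at 98 regions, 19.6% against 18.8%, which is near the background. QC was higher in both roots at 162, 32.4% against 35.8%, again near the background. Stomatal_precursor was lower in all 3 organs at 408, 81.6% against 25.1%, Cortex_meristem in both roots at 344, 68.8% against 38.4%, and Shoot_meristem in both seed stages at 317, 63.4% against 35.2%.

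Among the regions higher in the meristem-named states, the 5 with the smallest p lay in 3 places, and all had the same adjusted p of 0.00214 (limma, n = 7 organs). On chromosome 2 from 27434798 to 27435298 the difference was 1.60 ± 0.16 (SE), and further along the same stretch, from 27442871 to 27443371, it was 1.39 ± 0.15. On chromosome 4 the neighbours from 28533329 to 28533829 and from 28533908 to 28534408 had 1.61 ± 0.18 and 1.57 ± 0.18. On chromosome 11 from 7093608 to 7094108 it was 1.55 ± 0.17. All 5 were higher in each of the 7 organs, which the choice required.

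The chromosome 4 region from 28533908 had like values in the procambium of all 5 organs. It had 29.5 CPM in Procambial_meristem of axillary bud, 26.4 in early seedling, 26.2 in crown root, 24.9 in seedling and 24.2 CPM in seminal root. In panicle it had 29.9 CPM in SM, 30.3 in Panicle_UN4, 35.2 in Rudimentary_glume and 21.6 in FM, so FM was far above its median of 4.94 CPM over the 500 regions. Epidermis_meristem had 2.61 CPM. Outside panicle the lowest state was Shoot_meristem of early seed at 0.142 CPM. It was higher in Vascular_cell by 1.47 ± 0.13 (SE, n = 4 organs; adjusted p = 0.00316) and lower in Mesophyll by a difference of -1.32 ± 0.17 (n = 4 organs; adjusted p = 0.00562) and in Epidermis by -1.37 ± 0.24 (n = 4 organs; adjusted p = 0.0296), all by limma.

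Not all of the regions had the vascular pattern. The region with the highest mean log2 value outside panicle, chromosome 4 from 489694 to 490194, had 35.3 CPM in Panicle_UN4 and 20.5 in SM, a mean of 16.9 CPM over the 112 outside states and never less than 4.52 CPM. Its highest outside state was Bundle_sheath of leaf at 36.7 CPM, and its procambial difference was -0.13 ± 0.13 (SE, n = 5 organs; adjusted p = 0.621, limma). The next by that mean, chromosome 2 from 31935784 to 31936284, was highest in Endodermis of crown root at 31.9 CPM, with a procambial difference of 0.07 ± 0.11 (SE, n = 5 organs; adjusted p = 0.775, limma). The other 3 of the 5 highest, chromosome 12 from 3017437 to 3017937, chromosome 10 from 6019138 to 6019638 and chromosome 10 from 7342955 to 7343455, were higher in procambium by up to 1.29 (adjusted p from 0.00249 to 0.0173, limma).

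The 5 regions with the lowest mean log2 values outside panicle had 2.71 to 8.50 CPM in SM, below its median of 12.8 over the 500, and 4.19 to 11.1 CPM in Panicle_UN4, below its 14.2. Chromosome 2 from 28561989 to 28562489 had 2.71 CPM in SM, 4.19 in Panicle_UN4 and a mean of 0.952 CPM outside, with its highest outside value, 4.91 CPM, in Procambial_meristem of seminal root. Chromosome 12 from 25501411 to 25501911 had 4.62 and 11.1 CPM and a mean of 1.18 outside. Chromosome 3 from 29601983 to 29602483 had 3.51 and 6.38 CPM and was highest in Lateral_endosperm of early seed at 17.7 CPM. The 2 left, chromosome 3 from 6994022 to 6994522 and chromosome 3 from 6093675 to 6094175, were highest outside panicle in Developing_phloem and Developing_xylem of axillary bud at 17.7 and 16.3 CPM. The former was not low throughout panicle: it had 16.6 CPM in SBM, above the SBM median of 15.4, and 10.3 CPM in Rudimentary_glume. At such low levels the value of a single state is coarse, and its counting error is unknown.

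The authors' list of regions marks each as broadly accessible or names the states where they call it specific. Of the 500 regions, 363 were marked broad, 72.6% against 60.1% of the table, 117 were given specific states, 23.4% against 33.1%, and 20 were not listed. Of the 117, a panicle state was named for 88, 75.2% against 8.72% of all specific regions. The list comes from the same nuclei, so this is no independent evidence.

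The specific regions named a median of 8 states, against 5 in the table. The state named most often was IM of panicle, in 51 regions of 480 with that name in the table. IM has no column in the table, and Panicle_UN4 does not occur in the list. Companion_cell of axillary bud was named in 49 of 949, Procambial_meristem of seminal root in 46 of 4631 and SBM in 43 of 590. Procambial_meristem of axillary bud was named in 42 of 584, Phloem_precursor of axillary bud in 42 of 358 and PBM in 37 of 425. Like counts thus stood on unlike backgrounds. Procambial_meristem of seminal root was named in 39.3% of the specific regions of the set, against 10.9% of those in the table. For Phloem_precursor of axillary bud the shares were 35.9% and 0.84%. SM itself was named in 24 regions of 198. The region on chromosome 3 from 27692569 to 27693069, rank 9, was listed as specific, with Stele_initials of crown root and Procambial_meristem of seedling among its states.

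Sets made by the same rule from other panicle states differed in how vascular they were. The 500 regions for SBM and PBM shared 149 with the present set, 29.8% of each, and had procambial medians from 0.67 to 1.58 over the 5 organs, a range like that here. The 500 for FM shared 10, 2.0% of each, and their procambial medians ran from -0.26 to 0.02. The 500 for Epidermis_meristem shared 0, with procambial medians from -0.67 to -0.09 and Epidermis medians from 0.52 to 1.87. The sets are described side by side and the differences were not tested.

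Some of the regions lay close to one another. Of the 500, 195 (39.0%) had another of the 500 within 10 kb, and 127 had one within 2 kb, while the median distance to the nearest was 80642.5 bases. In the sets of 500 made by the same rule the share within 10 kb was 34.8% for SBM and PBM, 29.2% for FM and 37.8% for Epidermis_meristem. Joined at 10 kb they made 376 runs, of which 305 were single regions, 46 were pairs and 25 held 3 or more, with 103 regions in all. The table itself is dense around them: the nearest region of any kind was at a median of 844 bases against 905 for all regions, and 11 regions lay within 10 kb against 9. The regions of a run are not independent units.

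The longest runs held 7 regions each. On chromosome 2 from 19889361 to 19904094, 7 of the 10 regions of the table were in the set, with ranks between 6 and 63. They had 7.20 to 22.1 CPM in SM, 4.69 to 19.4 in Panicle_UN4 and 11.9 to 35.8 CPM in SBM. Their mean was highest in Companion_cell of axillary bud at 20.8 CPM, while Mesophyll of leaf stayed between 0.134 and 1.44 CPM. On chromosome 7 from 23862084 to 23880159, 7 of 13 regions were in the set, and their mean was highest in Phloem_precursor of axillary bud at 24.2 CPM.

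Some runs took in every region of their stretch. This was so for 5 of 5 regions on chromosome 3 from 27690647 to 27694901, highest in Developing_phloem of early seedling at a mean of 20.8 CPM. It was so for 5 of 5 on chromosome 3 from 7241215 to 7245693, highest in Procambial_meristem of seedling at 24.3 CPM. It was so for 4 of 4 on chromosome 1 from 7222009 to 7225633, which holds the first region and was highest in Phloem_parenchyma of axillary bud at 19.1 CPM. Each of these 3 stretches was therefore high in a different vascular state.

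The closest pairs lay nearly end to end, with a few bases between them. On chromosome 1 the regions from 13159934 to 13160434 and from 13160442 to 13160942 have centres 508 bases apart, with 14.3 and 19.9 CPM in SM and 11.7 and 22.7 in Panicle_UN4. On chromosome 1 from 38102949 to 38103449 and from 38103461 to 38103961 the centres are 512 bases apart, with 35.5 and 19.2 CPM in SM. On chromosome 3 from 27690647 to 27691147 and from 27691164 to 27691664 they are 517 bases apart, with 12.2 and 5.08 CPM in SM. Regions of each pair thus differed in level.

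By chromosome, 77 of the 500 regions lay on chromosome 3, 5.16 per 1000 regions of the table, the highest rate of the 12 chromosomes. Chromosome 9 had 13, 1.67 per 1000, the lowest. The other chromosomes lay between 2.71 and 4.77 per 1000.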

How the data were processed

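The 2 processed files of the series were used. The first holds log2 values, which the authors deposited per region and cell state, named as CPM in the table's name; column totals of 2 raised to the values lie between 1007548 and 1008613, with 1 shared maximum, so the values had been brought to nearly one distribution. The second is the authors' list of broad and specific regions. BWA and MACS2 are named in the submitters' processing notes, without role or version; the sources used here give no build, transposase shift or clustering. The tests were planned for CPM, so 2 was raised to each value, 1 was added as a pseudocount and log2 was taken again, which understates changes at low values. No depth is given, so no counting interval could be had, and no count test was run. Columns were assigned to organs by name, with 0 unassigned.

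For each label found in at least 4 organs outside panicle, and for states named as meristem, initial or QC, the state minus the mean of the organ's other states entered limma 3.58.1 (R 4.3.3; one-sample moderated test, two-sided, intensity trend, Benjamini-Hochberg over all regions at 0.05), for regions of at least 1 CPM in 1 or more of the columns. p-values measure the spread between organs. The method was tested on simulated data. Python 3.11.15 and pandas 2.3.3 did the rest. Regions named were the 10 highest, the 5 of smallest p called higher in meristem-named states with one sign in every organ (0 were called lower), those at the limit, the 5 highest and 5 lowest outside panicle, the 3 leaning most each way, the 3 closest pairs, and runs, which were chosen after their values were seen. The regions, labels and tests were chosen with earlier results of these data known. Nearby genes, motifs and sequences were not analysed here, since no genome of the files' build was used.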

Additional observations from a re-analysis of the deposited data

Results flagged for a closer look

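In 12 sets of organ values the highest or lowest organ was compared with the rest. The sets were the medians of the 7 contrasts, and the meristem-named differences of the 5 regions chosen by smallest p and one sign. In 1 set an organ stood apart. On chromosome 11 from 7093608 to 7094108 the difference was 2.62 in seedling and between 1.05 and 1.65 in the other 6 organs, and the gap was 0.617 of the whole range. In seedling the value comes from the procambial state alone, with 174 distinct values. Chance flags about 1 in 20 such groups.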

How the results depend on the processing

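No result changed sign. Leaving out each organ in turn gave ranges as follows. Higher in the meristem-named states were 158 to 287 regions (lower 0 to 1; median 0.57 to 0.81), in Procambial_meristem 193 to 313 (median 0.99 to 1.20), in Vascular_cell 33 to 199 (0.40 to 0.49) and in Companion_cell 0 to 104 (lower 0 to 1; 0.32 to 0.65). Lower in Epidermis were 0 to 375 (median -0.93 to -0.54), in Mesophyll 34 to 280 (higher 1 to 5; -0.70 to -0.46) and in Bundle_sheath 0 to 281 (higher 0 to 14; -0.61 to -0.37). With organs of 1 tissue label averaged, calls by limma were 0 higher in the meristem-named states (367 at an unadjusted p under 0.05), 72 in Procambial_meristem, 51 in Vascular_cell, 0 higher and 0 lower in Companion_cell (221 and 2 unadjusted), 0 lower in Epidermis (317), 53 lower and 1 higher in Mesophyll, and 0 lower and 0 higher in Bundle_sheath (215 and 14); fewer units entered this test, and in the fits with 0 no region of the table was called. Without procambial columns 0 were higher in the meristem-named states (216 unadjusted). Columns under 200 distinct values were also left out, which for the labels was added after seeing the data. The counts were then 115 higher and 1 lower in the meristem-named states. Lower were 55 in Mesophyll, 50 in Epidermis and 46 in Bundle_sheath, and the Vascular_cell median was 0.61. Companion_cell kept too few organs for a fit, and its columns of leaf and early seedling have 80 and 114 distinct values. A pseudocount of 5 gave 62 lower in Epidermis and medians of 0.63 in Procambial_meristem and 0.21 in Vascular_cell. A pseudocount of 0.1 gave 5 higher in Mesophyll and a Vascular_cell median of 0.64, and the deposited log2 values gave 5 and 0.68. The cause of the other shifts was not tested. A set of 250 regions shares 250 with the 500. Ranking by the lower of SM and Panicle_UN4 shared 353, and a pseudocount of 0.1, of 5 or none shared 400, 367 and 372. The median number of states outside panicle was 72.5 at 2 CPM and 32 at 5 CPM, against 100 and 42 for all regions. No paired analysis was possible because the columns carry no replicate number. Distance to gene starts and motif shares were not run. Depth limits single values, since columns with few distinct values are coarse.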
